A study of Mus musculus with 32 samples.

Results

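Whole-cortex RNA of single-housed mice that received fluoxetine and were not anxious (Sh + Flx) was compared with that of group-housed mice (Gh), gene by gene, in 8 of the 32 libraries of the series. The libraries were chosen by their labels alone: 4 input libraries of fluoxetine-treated, single-housed mice with normal behavior, and 4 input libraries of vehicle-treated, group-housed mice. Input is RNA taken from the cortical homogenate before immunoprecipitation, and it therefore holds the RNA of every cell type of the tissue, although the label of these samples names layer 5a S100a10 neurons. All mice carried the transgene Tg(S100a10-EGFP/Rpl10a)ES691Htz, in which S100a10 regulatory elements drive a tagged ribosomal protein. According to the methods of the study they were adult males of 1 founder line, the Sh mice lived alone from weaning and the Gh mice were their group-housed littermates. Sh + Flx mice drank water with fluoxetine (0.167 g/L, 21 days per the labels), and the open field sorted them from treated mice that were anxious (Sh + Flx anxious). Each library was made from the pooled cortices of 3 mice, with hippocampus and striatum removed. Housing and drug differ together between Sh + Flx and Gh and cannot be told apart in that comparison, so levels in single-housed, vehicle-treated mice (Sh, 4 libraries) and in Sh + Flx anxious mice (4 libraries) are given beside the results.

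Fluoxetine blocks the serotonin transporter and so prolongs the action of serotonin released in the cortex. Prolonged treatment is known for raising neurotrophic factors, among them brain-derived neurotrophic factor (BDNF), in forebrain, and isolation from weaning is known for lasting effects on anxiety and on myelin in the frontal cortex. Neurons also carry a set of activity-induced genes: calcium entry first switches on transcription factors such as Fos, Fosb and Npas4, and then effectors such as Bdnf, the pentraxin Nptx2 and activin A (Inhba), which act at synapses.

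Between 19265435 and 34515281 counts fell in genes in each of the 16 whole-cortex libraries. The tissue carried its defining mRNAs: the glutamatergic marker Slc17a7 stood at 184 to 286 CPM in the 8 libraries (CPM are counts scaled to a common library size by the trimmed mean of M values, TMM) and the GABAergic marker Gad2 at 742 to 1060. Within each of the 4 groups, libraries 1 and 4 resembled each other, and so did libraries 2 and 3. Chi-square per gene, about 1 from sampling noise alone, averaged 5.29 to 10.01 in these 8 pairs of libraries and 11.3 to 25.4 in the other 16. No library was a copy of another, but if like libraries share mice, the p-values measure a spread that is in part technical. For the main counts, calls are therefore also given with like libraries summed, which leaves 2 samples a group. In bulk RNA, fewer cells of a type and less RNA per cell cannot be told apart.

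Of 15690 genes tested, 833 (5.31%) differed between Sh + Flx and Gh at an adjusted p under 0.05 (edgeR quasi-likelihood test, Benjamini-Hochberg adjustment). Of these, 486 (3.1%) were higher in Sh + Flx and 347 (2.21%) were lower. Every count of list members called in this comparison is to be read beside these shares. The lists were written with earlier results of these data known, so a share above these is a description and not a test. The libraries of the groups did not overlap for 443 of the higher (2.82% of genes tested) and 302 of the lower genes (1.92%). Called or not, the libraries did not overlap for 5.88% of genes in the higher and 5% in the lower direction. The median log2 fold change over all genes was -0.01, with quartiles of -0.15 and 0.13. With like libraries summed, 148 of 16802 genes passed (0.881%), and all of them were among the 833, in the same direction. Without Sh + Flx library 1 the count was 482, and without Sh + Flx library 4 it was 524.

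**Figure D1:**
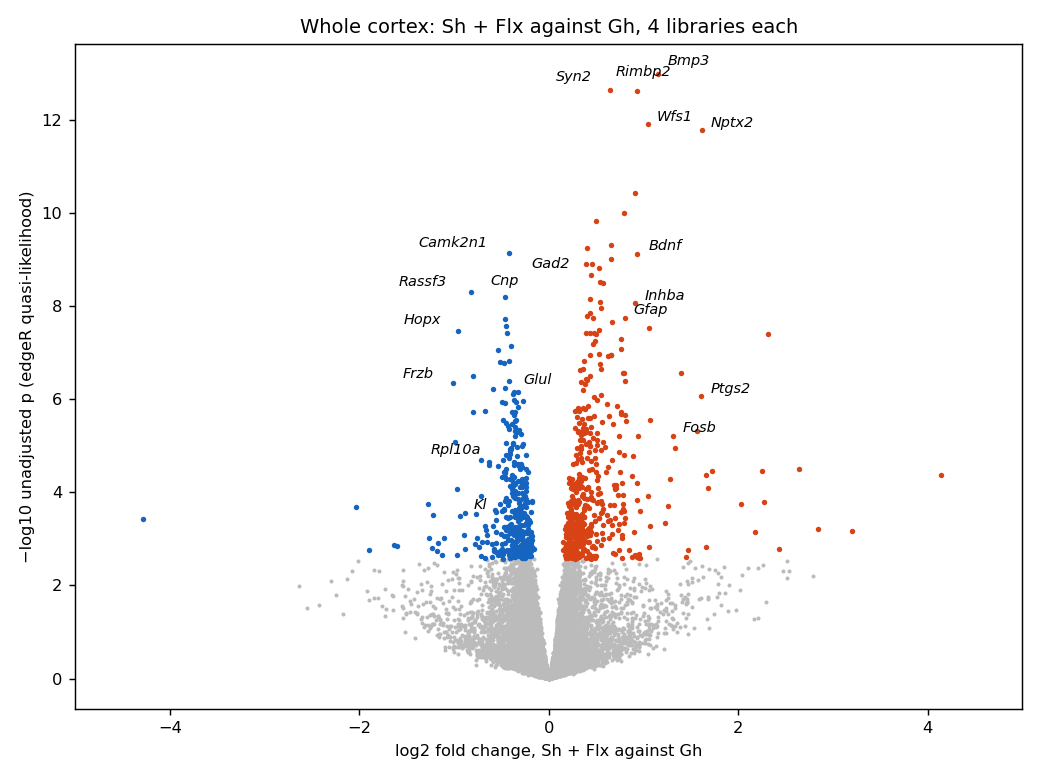
Each point is 1 of the 15690 genes tested, with its log2 fold change (Sh + Flx against Gh) on the horizontal axis and −log10 of its unadjusted p on the vertical axis. The 486 genes called higher are orange, the 347 called lower are blue and the rest are grey. Bmp3, Syn2, Rimbp2, Wfs1 and Nptx2 have the smallest p among higher genes, and Camk2n1, Rassf3 and Cnp among lower ones.

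The higher genes with the smallest p included a secreted factor and proteins of the synapse. The 15 higher and 15 lower leading genes were picked by smallest p among called genes whose libraries did not overlap. Lack of overlap between Gh and Sh + Flx in these genes therefore follows from the choice. Bmp3, a bone morphogenetic protein family member that restrains BMP signaling (chromosome 5, 98854415 to 98884053; GRCm38), stood at 36.3, 37.9, 41.4 and 44.1 CPM in the 4 Gh libraries and at 96.1, 85.8, 83.04 and 90.6 in Sh + Flx. Every Sh + Flx library was thus well above every Gh library, a 2.23-fold difference (log2 fold change 1.16 ± 0.09, standard error; adjusted p = 1.26e-09). Sh libraries lay between the groups, at 54.6, 58.6, 44.9 and 46.2 CPM. Syn2, which encodes the synaptic vesicle protein synapsin II (chromosome 6, 115134902 to 115282626), stood at 263, 291, 274 and 279 CPM in Gh and 432, 439, 418 and 445 in Sh + Flx. The groups were far apart compared with their spread (log2 fold change 0.65 ± 0.05, adjusted p = 1.26e-09), and Sh libraries, at 282, 288, 282 and 263, were at the Gh level. Wfs1, which encodes the endoplasmic reticulum membrane protein wolframin (chromosome 5, 36966104 to 36988982), was at 100.4, 98.1, 88.4 and 113 CPM in Gh and at 221, 191, 197 and 218 in Sh + Flx. This is a 2.07-fold difference without overlap (log2 fold change 1.05 ± 0.09, adjusted p = 4.93e-09).

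The other leading higher genes differed by less than 2-fold except for the pentraxin Nptx2, described with the activity-induced genes. Rimbp2, a scaffold that ties calcium channels to the active zone, rose by 0.93 on the log2 scale (adjusted p = 1.26e-09). Mylk, the smooth muscle myosin light chain kinase, rose by 0.80, and Plekha2 by 0.91. Hpcal4, a neuronal calcium sensor, rose by 0.50, and Akap5, the postsynaptic anchor of protein kinase A, by 0.40. Gad2, which encodes the GABA-synthesising enzyme GAD65, was at 742, 755, 761 and 806 CPM in Gh and at 1022, 968, 966 and 1059.8 in Sh + Flx, which do not overlap (log2 fold change 0.39 ± 0.04, adjusted p = 1.33e-06). Strip2 (0.66), Trnp1 (0.65) and the ubiquitin ligase Trim2 (0.46) completed this set together with Bdnf and Cnr1. All 15 remained called with like libraries summed, a fit of the same counts and so no independent check.

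Cnr1, the cannabinoid receptor CB1 (chromosome 4, 33923171 to 33948831), differed already between Sh and Gh. It stood at 164, 164, 170.2 and 178 CPM in Gh, at 207, 198, 222 and 208 in Sh and at 249.8, 231, 235 and 262 in Sh + Flx. The 3 groups did not overlap and lay in that order. The log2 fold change was 0.53 for Sh + Flx against Gh (adjusted p = 1.53e-06), 0.30 for Sh against Gh (adjusted p = 0.0347) and 0.23 for Sh + Flx against Sh (adjusted p = 0.0331). With like libraries summed, 0 genes passed in Sh against Gh (edgeR, 1029 at an unadjusted p under 0.05), so the call of Cnr1 in that comparison was lost.

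Among the lower genes, Camk2n1, an inhibitor of calcium/calmodulin-dependent kinase II (chromosome 4, 138455148 to 138460126), had the smallest p. It was at 3376, 3525, 3794 and 3531 CPM in Gh and at 2501, 2612, 2871 and 2631 in Sh + Flx. All Sh + Flx libraries were below all Gh libraries (log2 fold change -0.42 ± 0.05, adjusted p = 9.86e-07), and the Sh mean of 3192 lay between. Glul, Il33, Cnp and Gjc3 of this set are known as glial genes. Glul, the glutamine synthetase of astrocytes (chromosome 1, 153899929 to 153909723), fell from 963, 864, 948 and 916 CPM to 656, 737, 779 and 692 (log2 fold change -0.37 ± 0.06, adjusted p = 1.42e-04). It was near that level in Sh, at 751, 725, 738 and 801, and there the difference from Gh was -0.29 (adjusted p = 0.0347), whereas Sh + Flx against Sh gave -0.07 (adjusted p = 0.669). The call of Glul in Sh against Gh was lost with like libraries summed (edgeR). Il33, a cytokine made by oligodendrocytes and astrocytes, fell by 0.52 on the log2 scale (adjusted p = 4.44e-05), and Cnp and Gjc3 of oligodendrocytes are given below. Hopx, a homeodomain-only protein, was at 14.4, 15.2, 17.1 and 16.99 CPM in Gh and 6.92, 10.1, 8.98 and 6.59 in Sh + Flx, again without overlap (log2 fold change -0.96 ± 0.13, adjusted p = 1.56e-05).

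The remaining leading genes that fell, with their log2 fold changes, were Frzb, a secreted antagonist of Wnt signaling (-1.01), Rassf3 (-0.82), Ddit4l, an inhibitor of mTOR signaling (-0.59), Cdk2ap1 (-0.46), Kctd1 (-0.46), the actin nucleator Fmn1 (-0.44), Cadps2, which primes dense-core vesicles (-0.42), the nuclear receptor Rorb (-0.32) and the clock-output factor Hlf (-0.40). All 15 of the lower set also remained called with like libraries summed.

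Several effectors of neuronal activity were higher in Sh + Flx, whereas most of the transcription factors that are switched on first did not pass the test. Of 29 effectors tested, 10 rose (3.1% of all genes did), 0 fell (0 at an unadjusted p under 0.05 and 0 by DESeq2) and 19 did not pass, with a median log2 fold change of 0.20. With like libraries summed, 6 of them passed (Nptx2, Bdnf, Inhba, Nptx1, Nrn1 and Ptgs2). Of 27 activity-induced transcription factors, 4 rose, 0 fell (3 at an unadjusted p under 0.05 and 1 by DESeq2) and 23 did not pass, with a median of 0.00, and none passed with like libraries summed (edgeR; 6 at an unadjusted p under 0.05).

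Upstream sequence of 4 of these genes is shown because many activity-induced promoters carry a cyclic AMP response element (CRE, the letters TGACGTCA) or a binding site of Fos and Jun proteins (AP-1, the letters TGANTCA), and the 4 differ in both motif and response. The windows are the 250 bases before an annotated start site, in the direction of transcription, from RefSeq on GRCm38.p6, with each motif in capitals. The first window lies before the second of 7 annotated Bdnf start sites (chr2:109676782-109677031, plus strand) and the second before Rgs2 (chr1:144004150-144004399, minus strand), both of which rose. The others lie before Scg2 (chr1:79440027-79440276, minus strand) and Plk2 (chr13:110394794-110395043, plus strand), which did not pass the test.
Bdnf: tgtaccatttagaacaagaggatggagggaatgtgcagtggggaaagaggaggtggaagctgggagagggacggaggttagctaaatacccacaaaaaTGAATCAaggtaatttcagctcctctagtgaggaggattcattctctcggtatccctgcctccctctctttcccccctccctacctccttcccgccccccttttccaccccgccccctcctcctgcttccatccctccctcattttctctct
Rgs2: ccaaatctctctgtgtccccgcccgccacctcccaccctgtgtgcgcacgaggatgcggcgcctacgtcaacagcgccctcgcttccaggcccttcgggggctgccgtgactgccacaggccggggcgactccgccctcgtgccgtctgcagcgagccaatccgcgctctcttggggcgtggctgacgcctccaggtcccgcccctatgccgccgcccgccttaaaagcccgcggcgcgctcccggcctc
Scg2: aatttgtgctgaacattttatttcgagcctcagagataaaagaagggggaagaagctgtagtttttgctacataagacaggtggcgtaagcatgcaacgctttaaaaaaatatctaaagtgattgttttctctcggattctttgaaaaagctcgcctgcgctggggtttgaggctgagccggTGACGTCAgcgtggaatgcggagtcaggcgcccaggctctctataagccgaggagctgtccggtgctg
Plk2: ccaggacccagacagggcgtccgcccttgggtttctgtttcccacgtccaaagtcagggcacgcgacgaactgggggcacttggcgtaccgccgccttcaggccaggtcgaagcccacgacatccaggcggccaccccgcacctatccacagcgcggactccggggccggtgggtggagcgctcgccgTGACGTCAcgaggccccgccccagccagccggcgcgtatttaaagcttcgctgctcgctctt

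Each motif is its own reverse complement, so both strands were searched at once, and the letters of the motifs cannot overlap as whole matches. At least 1 such window held the CRE letters in 6 of the 41 activity-induced genes in the promoter table (14.6%), against 330 of 11618 tested genes (2.84%). None of the 6 (Scg2, Plk2, Pcsk1, Arl4d, Btg2 and Maff) was called, and of all 41 genes 9 were. Of the 14 called genes, 9 had a window, and none of these 9 held the CRE letters. AP-1 letters stood in 1 called gene, Bdnf, starting 152 bases before the start site, in 1 gene that was not called, Csrnp1, and in 650 tested genes (5.59%). Among all genes called higher, 10 of 351 held the CRE letters (2.85%) and 23 held the AP-1 letters (6.55%). The match is a description of exact letters in a short window. Near matches were not counted, such as tcacgtca in another Bdnf window (chr2:109692186-109692435), and the Inhba window lay wholly in annotated exons. The search therefore cannot show that called genes lack such elements, and 6 genes are too few to tell whether genes with the CRE letters respond less often.

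Nptx2, a secreted pentraxin that clusters AMPA receptors on interneurons (chromosome 5, 144545887 to 144557478), differed most among the leading genes. It was at 11.4, 8.59, 10.03 and 16.5 CPM in Gh, 9.60, 9.38, 11.4 and 12.6 in Sh and 35.1, 35.5, 39.3 and 31.9 in Sh + Flx. Every Sh + Flx library exceeded every Gh and Sh library by a wide margin. The log2 fold change was 1.61 ± 0.13 against Gh (adjusted p = 5.29e-09) and 1.73 against Sh (adjusted p = 3.99e-09), whereas Sh + Flx anxious libraries, at 36.8, 37.6, 36.5 and 39.8 CPM, lay at the Sh + Flx level. Its relative Nptx1 rose by 0.48 against Gh (adjusted p = 1.56e-05).

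Bdnf (chromosome 2, 109674700 to 109727043) stood at 30.97, 21.4, 22.9 and 29.2 CPM in Gh and at 53.3, 47.6, 49.6 and 49.6 in Sh + Flx. The groups were separated by a wide gap, a 1.91-fold difference (log2 fold change 0.94 ± 0.10, adjusted p = 9.86e-07), and the difference from Sh was 0.77 (adjusted p = 2.49e-05). Inhba, the subunit of activin A (chromosome 13, 16004256 to 16031609), was at 42.1, 29.01, 30.3 and 37.9 CPM in Gh and at 68.4, 58.3, 67.7 and 68.1 in Sh + Flx (log2 fold change 0.91 ± 0.11, adjusted p = 5.76e-06). It did not overlap between these groups, and Sh + Flx anxious libraries, at 97.2, 72.2, 76.1 and 108 CPM, were all higher still, although that difference did not pass the test (-0.43 for Sh + Flx against Sh + Flx anxious, adjusted p = 0.129). Nrn1, the neurite growth factor neuritin, rose by 0.37 (adjusted p = 4.44e-05) and Vgf, a neuropeptide precursor, by 0.52 (adjusted p = 0.00561). Gpr3, a receptor that raises cyclic AMP, rose by 0.80, and the sorting receptor Sorcs3 by 0.38.

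A few of these genes followed the likeness of libraries within the group. Ptgs2, which encodes cyclooxygenase-2 (chromosome 1, 150100031 to 150108234), was at 8.77, 10.2, 7.58 and 10.98 CPM in Gh and at 43.3, 14.1, 16.7 and 40.5 in Sh + Flx. Libraries 1 and 4 of Sh + Flx were far above libraries 2 and 3, which were still above every Gh library (log2 fold change 1.61 ± 0.25, adjusted p = 1.69e-04). Rgs2, an inhibitor of Gq signaling (chromosome 1, 143999338 to 144004149), showed the same split, at 128, 139, 149.6 and 131 CPM in Gh against 271, 186, 191 and 284 in Sh + Flx (log2 fold change 0.76 ± 0.13, adjusted p = 3.00e-04).

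Among transcription factors, Fosb (chromosome 7, 19302696 to 19310118) was at 12.8, 15.1, 12.9 and 11.98 CPM in Gh and 40.8, 26.1, 22.01 and 42.6 in Sh + Flx. All Sh + Flx libraries were higher, libraries 1 and 4 the most (log2 fold change 1.31 ± 0.24, adjusted p = 6.62e-04). Klf10 rose by 0.74 (adjusted p = 0.00125), Jun by 0.44 (adjusted p = 0.00526) and Ier5 by 0.37 (adjusted p = 0.0124). Fos itself was at 8.57, 15.4, 11.9 and 8.05 CPM in Gh and at 16.8, 11.4, 11.6 and 16.8 in Sh + Flx, which overlap (log2 fold change 0.36, 95% interval -0.34 to 1.07). Npas4 was at 11.6, 12.5, 10.5 and 12.2 CPM and 25.6, 9.60, 7.01 and 23.3, so that libraries 1 and 4 of Sh + Flx were above, and 2 and 3 below, every Gh library (adjusted p = 0.528). Egr1 was at 745 CPM in Gh and 599 in Sh + Flx (log2 fold change -0.32, adjusted p = 0.118). The synaptic effectors Arc (-0.13, 95% interval -0.57 to 0.31) and Homer1 (-0.01, 95% interval -0.13 to 0.11) did not pass either. Of 16 MAP kinase phosphatase and Sprouty genes, which dampen the ERK cascade, Dusp4 rose (0.73, adjusted p = 0.0196) and the others did not pass (median 0.10). Dusp4 lost the call without Gh library 2 or Sh + Flx library 1.

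**Figure D2:**
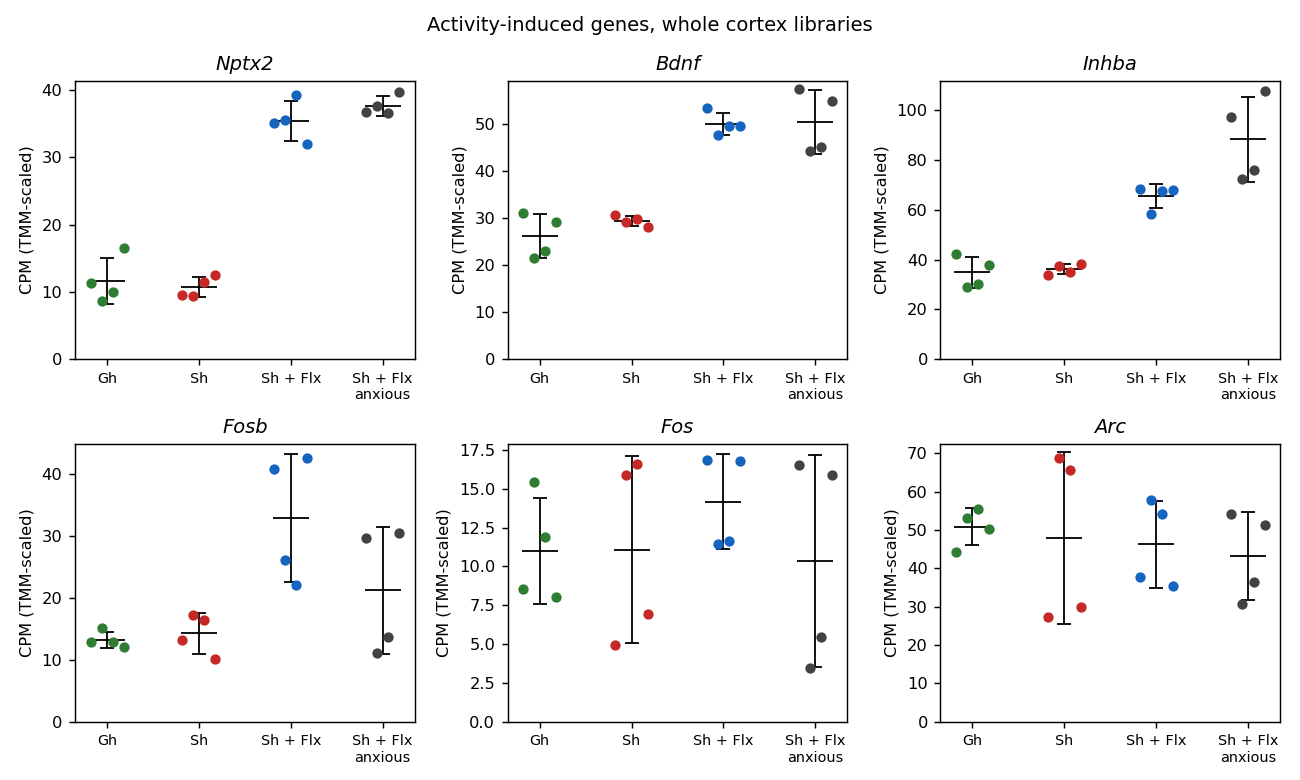
CPM (TMM-scaled) of 6 activity-induced genes in each of the 16 whole-cortex libraries, by group, with libraries 1 to 4 from left to right. The black bar and whiskers are the mean and SD of 4 libraries. Nptx2, Bdnf, Inhba and Fosb have every Sh + Flx library above every Gh library, whereas Fos and Arc overlap between the groups.

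Genes of synaptic vesicles moved in both directions, and the ionotropic glutamate receptor genes that passed were all higher. Of 32 synaptic vesicle and SNARE genes, 6 rose and 3 fell (3.1% and 2.21% of all genes did, median 0.01). Besides Syn2, the vesicle glycoproteins Sv2c (0.44) and Sv2b (0.31), the glutamate transporter Slc17a7 (0.36), the small GTPase Rab3c (0.26) and Syn3 (0.22) rose. The vesicle SNARE Vamp2 (-0.30), its paralog Vamp1 (-0.31) and Rab3a (-0.20) fell. Slc17a7 was at 236, 184, 210.3 and 235 CPM in Gh and 279, 282, 286 and 266 in Sh + Flx, and Vamp2 at 1863, 1622, 1814 and 1786 and 1384, 1462, 1461 and 1462. Neither overlapped between the groups. With like libraries summed, Syn2 and Vamp2 were the members of this list that passed.

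Over 17 ionotropic glutamate receptor subunits the median was 0.07. It was 0.12 for Sh against Gh (15 of 17 positive) and -0.04 for Sh + Flx against Sh (11 of 17 negative). Of the 17, 0 were lower in Sh + Flx than in Gh at an unadjusted p under 0.05 or by DESeq2. By edgeR, 4 rose and 0 fell in Sh + Flx against Gh (3.1% and 2.21% of all genes did). These were the NMDA receptor subunits Grin2b (0.33 ± 0.06, adjusted p = 0.00127) and Grin3a (0.41 ± 0.09, adjusted p = 0.00445), the kainate receptor subunit Grik5 (0.37 ± 0.08, adjusted p = 0.00664) and the AMPA receptor subunit Gria1 (0.19 ± 0.06, adjusted p = 0.0432). Grin2b was at 173, 158, 164 and 163 CPM in Gh, 194, 182, 188 and 182 in Sh and 230.5, 197, 185 and 215 in Sh + Flx. All Sh + Flx libraries exceeded all Gh libraries, and Sh libraries lay in between and overlapped Sh + Flx. Among 16 GABA receptor genes Gabbr2, a subunit of the GABA-B receptor, rose (0.25, adjusted p = 0.0227), whereas 3.1% of all genes rose. The call of Gabbr2 was lost without any 1 of 6 libraries (all but Gh 1 and 4). DESeq2 called 1 gene of this list higher and 1 lower, and 3 were higher and 1 was lower at an unadjusted p under 0.05. Gria1 also lost the call in 6 of the 8 omissions. None of these 5 receptor genes passed the test against Sh (adjusted p of 0.0843 for Grik5 and higher for the others), nor with like libraries summed (edgeR).

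Potassium channel genes that passed were also higher, with 6 of 32 genes higher and 0 lower by edgeR (3.1% and 2.21% of all genes were). The median was 0.12, and 1 gene was lower at an unadjusted p under 0.05 and 1 by DESeq2. For Sh against Gh the median was 0.11, with 28 of 32 genes positive. For Sh + Flx against Sh it was -0.05, with 2 genes called higher and 1 lower. In Sh + Flx against Gh, the count of higher genes fell to 3 without Gh library 2, Gh library 3 or Sh + Flx library 1. Kcna6 (0.31), Kcnd3 (0.31), Kcna1 (0.19), Kcnh1 (0.26) and Kcnf1 (0.33) were among the members that rose, and none of the list passed with like libraries summed (edgeR; 12 at an unadjusted p under 0.05).

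Peptide systems gave 6 higher and 1 lower of 44 genes (3.1% and 2.21% of all genes were), with a median of 0.24. The median was 0.14 for Sh against Gh (31 of 44 positive). It was 0.05 for Sh + Flx against Sh, with 3 genes called higher and 1 lower. In Sh + Flx against Gh, none was called with like libraries summed (edgeR). There, 8 were higher and 4 lower at an unadjusted p under 0.05. Without 1 library the count was 4 to 6 higher, with 4 without Gh library 3 or Sh + Flx library 1 or 4, and 0 to 2 lower. The delta opioid receptor Oprd1 (0.51 ± 0.09, adjusted p = 8.00e-04), the PACAP receptor Adcyap1r1 (0.42 ± 0.09, adjusted p = 0.00242) and the VIP receptor Vipr1 (0.70 ± 0.15, adjusted p = 0.00416) rose. So did Crhbp, which binds corticotropin-releasing hormone (0.55), the TRH receptor Trhr (0.67) and neuropeptide Y (0.36). Npy was at 22.5, 26.5, 20.8 and 26.9 CPM in Gh, 23.1, 20.9, 19.1 and 24.4 in Sh and 32.8, 29.4, 29.5 and 32.8 in Sh + Flx. Sh + Flx libraries exceeded those of Gh and Sh, and the difference from Sh was 0.51 (adjusted p = 0.00363). Against Gh, Npy lost the call without Gh library 1 (edgeR adjusted p = 0.0847) or 3 (0.13), or Sh + Flx library 1 (0.106) or 4 (0.0971). The peptide precursor Cartpt fell, from 5.48, 5.04, 5.02 and 5.12 CPM to 3.41, 3.87, 3.27 and 2.06 (log2 fold change -0.71 ± 0.19, adjusted p = 0.029). For Trhr, Sh libraries (6.51, 6.20, 5.89 and 6.91 CPM) were as high as Sh + Flx libraries (6.63, 4.82, 7.22 and 7.55), and the groups Gh and Sh + Flx overlapped in 1 library each.

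Growth factor and matrix genes rose for the most part among those that passed. Of 28 genes of neurotrophin, insulin and IGF signaling, 3 rose and 1 fell (3.1% and 2.21% of all genes did). Bdnf, the binding protein Igfbp4 (0.55 ± 0.09, adjusted p = 1.61e-04) and the neurotrophin-3 receptor Ntrk3 (0.28, adjusted p = 0.0119) rose, and Igf2 fell (-0.63 ± 0.12, adjusted p = 0.00183). Of 27 perineuronal net and matrix genes, 4 rose and 1 fell (3.1% and 2.21% of all genes did, median 0.10). Without Gh library 3 or Sh + Flx library 4 the counts were 2 and 0. Timp2, an inhibitor of matrix metalloproteases, was at 281, 239.9, 249 and 282 CPM in Gh and 409, 366, 368 and 420.0 in Sh + Flx, and the groups did not overlap (log2 fold change 0.57 ± 0.07, adjusted p = 2.61e-06). Hapln4, a link protein of perineuronal nets, rose by 0.50 (adjusted p = 1.56e-05), the proteoglycan Ncan by 0.33 and Reln by 0.33, and the protease Adamts1 fell by 0.50 on that scale. Of 63 axon guidance genes, 6 rose and 1 fell (3.1% and 2.21% of all genes did), and 4 rose without Gh library 3. The semaphorin co-receptor Nrp1 (0.76 ± 0.10, adjusted p = 1.90e-05) and Sema4a (0.79 ± 0.12, adjusted p = 7.00e-05) rose most, followed by Unc5a (0.44), Nrp2 (0.37), Epha5 (0.31) and Plxna4 (0.26), and Sema6a fell (-0.36). Timp2, Hapln4, Nrp1, Sema4a and Igfbp4 remained called with like libraries summed. Over the axon guidance list the median was 0.05 for Sh + Flx against Gh and 0.08 for Sh against Gh (44 of 63 positive). For Sh + Flx against Sh it was -0.04 (37 of 63 negative, 2 called higher). The matrix list had medians of 0.07 for Sh against Gh (21 of 27 positive) and 0.03 for Sh + Flx against Sh (2 called higher).

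Most oligodendrocyte markers fell in Sh + Flx. Of 16 oligodendrocyte and myelin markers, 9 fell (2.21% of all genes did) and 0 rose (0 at an unadjusted p under 0.05 and 0 by DESeq2), and the median log2 fold change was -0.40, against -0.01 over all genes. It was -0.31 for Sh + Flx against Sh and -0.07 for Sh against Gh. Summed over the list, the level ranged over 2593 to 2892 CPM in Gh, 2419 to 2814 in Sh, 2017 to 2073 in Sh + Flx and 1612 to 1995 in Sh + Flx anxious libraries. With like libraries summed, Cnp, Gjc3 and Mal were among those that passed. Of 11 markers of oligodendrocyte precursors, Olig1 (-0.39 ± 0.08, adjusted p = 0.00419) and Sox10 (-0.28 ± 0.08, adjusted p = 0.0374), which mature oligodendrocytes also express, fell and the others did not pass.

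Gjc3, a glial connexin (chromosome 5, 137950992 to 137963098), stood at 126, 129.9, 141 and 118 CPM in Gh and 79.4, 91.7, 95.3 and 88.8 in Sh + Flx, again without overlap (log2 fold change -0.53 ± 0.07, adjusted p = 2.92e-05). Mal, a proteolipid of myelin membranes, was at 191, 154, 163 and 165 CPM in Gh, 156, 146, 140.5 and 171 in Sh and 123, 113, 116 and 124 in Sh + Flx, and Sh + Flx libraries were below those of Gh and Sh (log2 fold change -0.50 ± 0.08 against Gh, adjusted p = 2.10e-04, and -0.36 against Sh, adjusted p = 0.00864). Enpp2 (-0.48), Aspa, which releases acetate for myelin lipids (-0.47), the iron carrier Trf (-0.39) and myelin basic protein Mbp (-0.28) also fell. Mog was at 21.6 CPM in Gh and 16.4 in Sh + Flx (log2 fold change -0.40, adjusted p = 0.0526).

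Of 16 oligodendrocyte and myelin markers, 2 were called higher in Sh + Flx than in Sh + Flx anxious, Cnp and Mobp. All 16 had a positive log2 fold change in that comparison (median 0.20), and the summed levels given above did not overlap. Cnp, which encodes 2′,3′-cyclic-nucleotide 3′-phosphodiesterase of myelin (chromosome 11, 100574909 to 100591875), was at 159.6, 169, 183 and 169 CPM in Gh, 144, 149, 138 and 144 in Sh, 123, 131, 123 and 117 in Sh + Flx and 97.1, 103, 104 and 100.5 in Sh + Flx anxious libraries. The groups descended in that order without overlap. The log2 fold change of Sh + Flx was -0.46 against Gh (adjusted p = 4.88e-06), -0.22 against Sh (adjusted p = 0.0292) and 0.29 against Sh + Flx anxious (adjusted p = 0.0247). Mobp, a myelin-associated basic protein (chromosome 9, 120149742 to 120181488), was at 172, 158, 157 and 199 CPM in Gh, 146, 122, 126 and 155 in Sh + Flx and 79.2, 98.3, 105 and 84.9 in Sh + Flx anxious libraries. Sh + Flx lay below Gh (-0.32, adjusted p = 0.0234) and above Sh + Flx anxious (0.58, adjusted p = 0.00146). The difference of Mobp from Gh lost the call without Gh library 4 (edgeR adjusted p = 0.106) or without Sh + Flx library 2 (0.0955) or 3 (0.0934). Over all genes, 20 (0.127%) differed between Sh + Flx and Sh + Flx anxious, 12 higher (0.0765%) and 8 lower (0.051%) in Sh + Flx. With like libraries summed, 1 gene passed in that comparison (edgeR), so Cnp and Mobp did not both remain called. Striatal markers also differed between the fluoxetine groups and are given below.

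**Figure D3:**
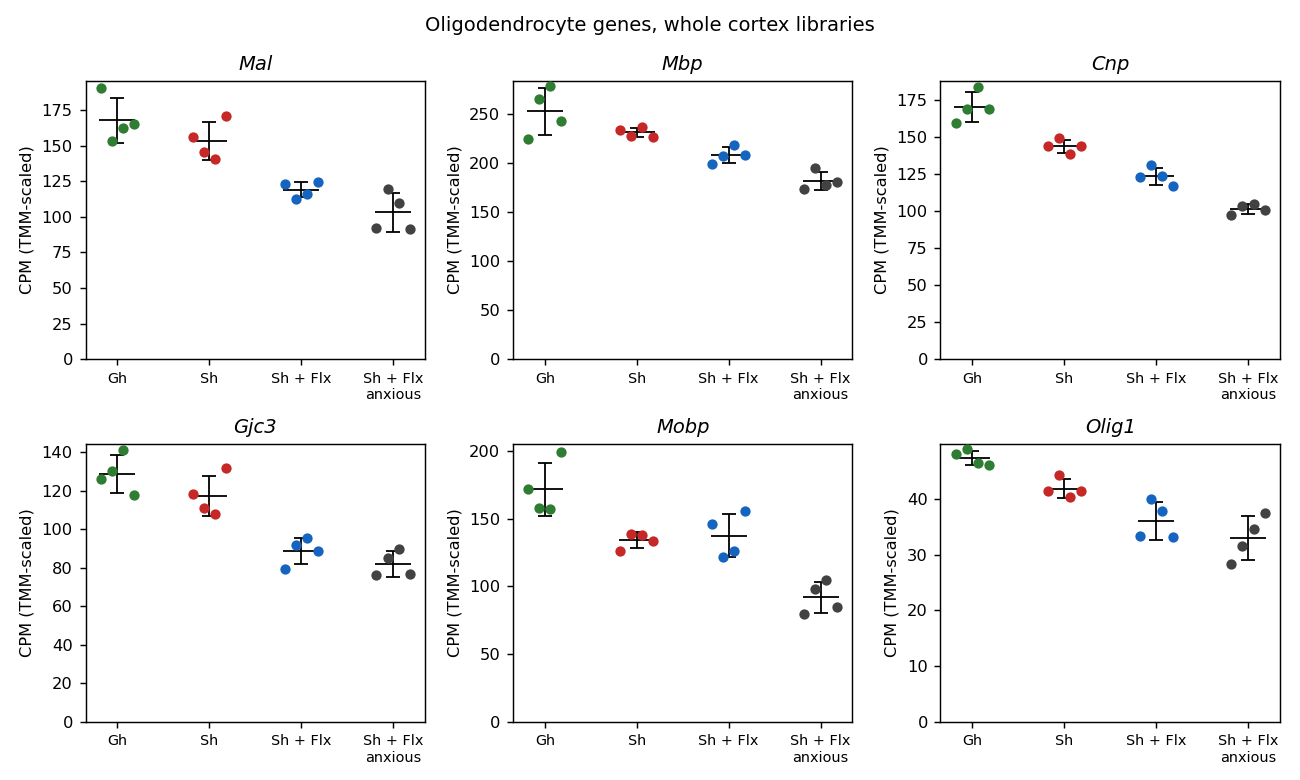
CPM (TMM-scaled) of 6 oligodendrocyte genes in each of the 16 whole-cortex libraries, by group, with mean and SD (black) of 4 libraries. In each panel the 4 Sh + Flx libraries lie below the 4 Gh libraries, and for Cnp and Mobp the Sh + Flx anxious libraries lie below Sh + Flx.

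Astrocyte markers were divided. Of 16, Gfap rose, Aldoc fell and 14 did not pass (median -0.04). Gfap, the intermediate filament of reactive astrocytes (chromosome 11, 102887336 to 102897200), was at 13.9, 17.8, 15.1 and 14.4 CPM in Gh, 13.7, 14.6, 15.2 and 12.2 in Sh and 24.3, 26.6, 27.4 and 28.7 in Sh + Flx. Sh + Flx libraries were all above those of Gh and Sh, and Sh + Flx anxious libraries, at 32.6, 27.4, 25.6 and 30.8 CPM, overlapped them. The log2 fold change was 0.80 ± 0.10 against Gh (adjusted p = 9.82e-06) and 0.93 against Sh (adjusted p = 1.57e-06). Serpina3n (0.73 ± 0.16, adjusted p = 0.00599) and the filament Vim (0.57 ± 0.14, adjusted p = 0.0108), which reactive astrocytes also express, rose as well. These 3 were the members that passed among 24 interferon and inflammatory genes (median 0.08). Aldoc was at 196 CPM in Gh, 158 in Sh and 162 in Sh + Flx (-0.28 against Gh, adjusted p = 0.0066).

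Markers of other non-neuronal cells gave few calls. No marker passed among 15 of microglia (median -0.00), 12 of endothelium (-0.01), 10 of mural cells (-0.09) or 5 of ependyma (-0.28) by edgeR. DESeq2 called 0 in each, and 0, 1, 2 and 0 genes had an unadjusted p under 0.05. Of 20 meningeal fibroblast markers, Igf2, Apod (-0.46) and Ptgds (-0.36) fell and Cyp1b1 rose (0.77). The defining genes Col1a1 (0.76), Col1a2 (-0.08), Col3a1 (0.55) and Dcn (0.67) did not pass, and Apod and Ptgds are also made by oligodendrocytes. Choroid plexus markers moved with the likeness of libraries: Ttr was at 75.3, 149, 148 and 80.1 CPM in Gh and 38.1, 74.4, 70.1 and 40.6 in Sh + Flx (log2 fold change -1.02, adjusted p = 0.0936), so that libraries 2 and 3 were the higher ones in both groups. Of 10 such markers, Kl passed (-0.89, adjusted p = 0.0109) and the list median was -0.82. That median was -0.54 for Sh against Gh (10 of 10 negative) and -0.19 for Sh + Flx against Sh (8 of 10 negative). The summed level of choroid plexus markers ranged over 123 to 220.2 CPM in Gh and 63.7 to 117 in Sh + Flx, and its part in other results was not tested. Igf2, which choroid plexus also expresses, was at 70.4, 92.6, 99.3 and 93.3 CPM in Gh and 46.4, 68.9, 66.9 and 47.03 in Sh + Flx.

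Markers of neuron classes showed no uniform direction, and over all genes 3.1% rose and 2.21% fell. Of 21 interneuron markers, Gad2, Reln and Npy rose and Lamp5 (-0.48 ± 0.08, adjusted p = 3.94e-04), Pvalb (-0.56 ± 0.15, adjusted p = 0.021) and Adarb2 (-0.29) fell (median -0.09). Without Gh library 3 or Sh + Flx library 4 the list had 1 gene higher and 1 lower, and with like libraries summed Gad2 and Lamp5 passed. Pvalb lost the call without Gh library 3 (edgeR adjusted p = 0.0728), Sh + Flx library 1 (0.059) or Sh + Flx library 4 (0.093). Adarb2 lost it without the same libraries (0.0958 to 0.155) and Reln without Gh library 3 (0.0617) or Sh + Flx library 4 (0.0719). Pvalb, the calcium buffer of fast-spiking interneurons, was at 14.6, 14.5, 15.99 and 13.2 CPM in Gh and 10.01, 10.03, 11.4 and 8.14 in Sh + Flx, without overlap, and Lamp5 at 84.3, 80.3, 71.3 and 85.9 and 56.5, 57.1, 53.6 and 63.2, also without overlap. Of 11 glutamatergic markers, 4 rose (Sv2b, Slc17a7, Neurod2 at 0.24 and the Nogo receptor relative Rtn4rl2 at 0.79) and Camk2a (-0.34) and Nrgn (-0.30) fell. Of 12 upper-layer and layer 4 markers, Wfs1 rose and Rorb, Lamp5, Rasgrf2 (-0.25) and Rspo1 fell (median -0.13). Rorb, a nuclear receptor of layer 4 neurons, was at 561, 525, 544 and 553 CPM in Gh and 421, 431, 470.3 and 426 in Sh + Flx, and Rspo1, a Wnt agonist, at 13.98, 12.9, 14.2 and 12.4 and 6.60, 9.24, 8.77 and 6.13. Both were lower in every Sh + Flx library. In layer 5, Pcp4 fell (-0.27) and Sulf1 rose (0.35) of 16 markers, and in layer 6 Syt6 (0.46) and Drd1a (0.37) rose of 15.

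Markers of neighbouring tissue that a dissection can carry along were also counted. Of 18 striatal markers, Ppp1r1b (0.36) and Drd1a, both of which deep cortical neurons express, rose (median 0.18), with a summed level of 1189 to 1291 CPM in Gh and 1291 to 1408 in Sh + Flx. The striatal median was 0.19 for Sh against Gh (18 of 18 positive) and -0.05 for Sh + Flx against Sh. It was 0.36 for Sh + Flx against Sh + Flx anxious, with 17 of 18 positive and 2 called higher. The part of striatal RNA in other results was not tested. Hippocampal markers gave Wfs1 and Nrgn among 12 (median -0.20), thalamic markers Rora (-0.19) among 12 (median -0.32, 11 of 12 negative, 7 lower and 0 higher at an unadjusted p under 0.05, 2 lower by DESeq2), and none of 8 olfactory bulb markers passed by edgeR (median -0.30, 3 at an unadjusted p under 0.05, 0 by DESeq2). Of 3 pituitary markers tested, Chga, a granin of dense-core vesicles that neurons also make, rose (0.65, adjusted p = 3.49e-05). The thalamic count ran from 0, without Gh library 3 or Sh + Flx library 1, to 3, without Gh library 1 or 4, and the summed level of thalamic markers was 704 to 819 CPM in Gh and 671 to 698 in Sh + Flx. The thalamic median was -0.28 for Sh against Gh (11 of 12 negative) and -0.04 for Sh + Flx against Sh. The part of thalamic RNA in other results was not tested. The blood marker tested did not pass.

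Ribosomal protein and respiratory chain genes that passed were all lower. Of 78 cytosolic ribosomal protein genes, 20 fell (2.21% of all genes did) and 0 rose by edgeR, with a median of -0.21. DESeq2 called 27 lower and 0 higher, and 51 were lower and 0 higher at an unadjusted p under 0.05. Without 1 library at a time the count that fell ranged from 8, without Gh library 2 or Sh + Flx library 4, to 26, without Gh library 4. It was 11 without Gh library 3, and 10 without either Sh + Flx library 1 or 3. The median of the same genes was -0.19 for Sh against Gh and -0.03 for Sh + Flx against Sh. Rpl21 was at 188, 198, 198 and 179 CPM in Gh, 157, 164, 158 and 163 in Sh and 142, 155, 158 and 146 in Sh + Flx (log2 fold change -0.35 ± 0.06 against Gh, adjusted p = 3.89e-04). For Rpl21, every Gh library lay above every Sh and Sh + Flx library. Summed over the list, the level was 6018 to 7311 CPM in Gh and 5695 to 6024 in Sh. It was 5553 to 5918 in Sh + Flx and 5146 to 6142 in Sh + Flx anxious libraries. By this sum Gh overlapped Sh and Sh + Flx anxious. Rpl31 (-0.35), Rps16 (-0.42) and Rpl10a (-0.45), whose coding sequence is also in the transgene, fell too. Of 36 complex I subunits 4 fell, among them Ndufa4 (-0.39) and Ndufs4 (-0.32), with a median of -0.11. The count was 0 without Gh library 2 (edgeR), 1 without Sh + Flx library 1, 2 without Gh library 3 or Sh + Flx library 2 or 4, and 6 without Gh library 1. Of 40 genes of complexes II to V and cytochrome c 5 fell, among them Cox8a (-0.32) and Cox7b (-0.31), with a median of -0.12. The count was 1 without Gh library 2 or 3, 2 without Sh + Flx library 1, 2 or 3, and 8 without Gh library 1 or 4. None of these 3 lists had a member called with like libraries summed (edgeR), where 36, 7 and 9 of their genes were lower at an unadjusted p under 0.05. Of 31 proteasome genes none passed by edgeR or DESeq2 (median -0.05, 3 at an unadjusted p under 0.05).

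Log2 fold changes varied with transcript length over the whole table, and these genes are short. Of the 78 ribosomal protein genes, 68 lay in the shortest of 5 equal groups of genes by annotated transcript (30 to 1840 bases, 3133 genes), as did 31 of 36 complex I and 35 of 40 genes of complexes II to V. In that group the median log2 fold change of Sh + Flx against Gh was -0.08, whereas in the longest group (5904 bases and more, 3127 genes) it was 0.03. The same medians were -0.09 and 0.04 for Sh against Gh, and 0.00 in both groups for Sh + Flx against Sh. In the shortest group 0.862% of genes were called higher and 2.71% lower, and in the longest 6.24% and 1.98%. The part of transcript length in the results was not tested. Oligodendrocyte markers, with a median transcript of 2689 bases, had 2 of 16 members in the shortest group and none in the longest.

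**Figure D4:**
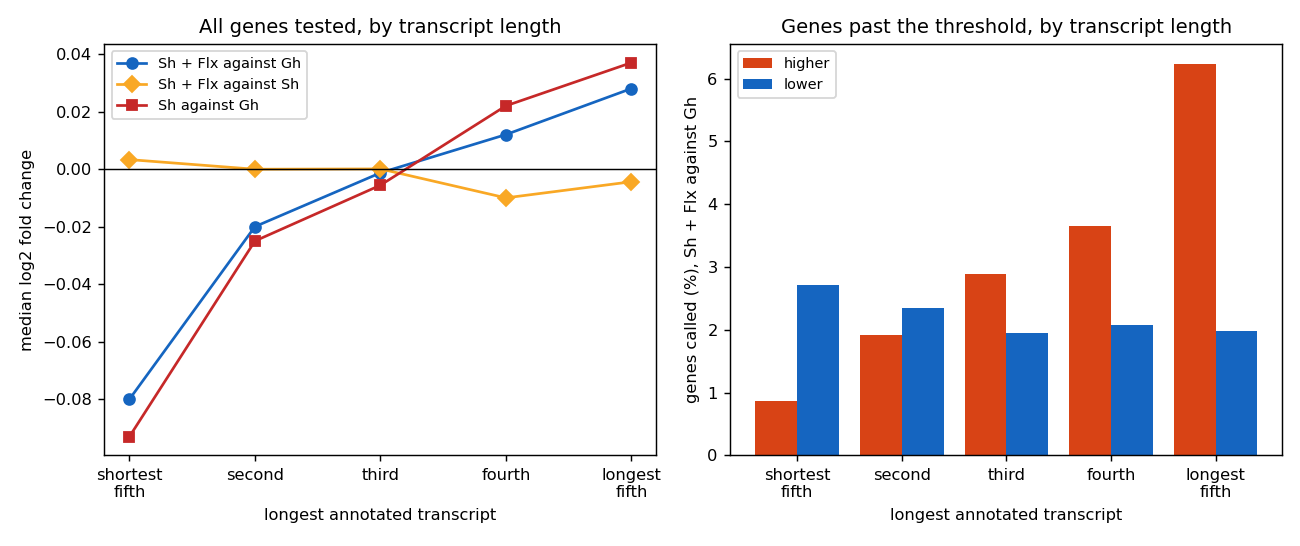
Left, median log2 fold change (vertical axis) of all genes tested in 5 equal groups by longest annotated transcript (horizontal axis), for 3 comparisons. Right, percent of genes in each length group called higher or lower in Sh + Flx than in Gh. The medians climb from -0.08 to 0.03 for Sh + Flx against Gh and stay near 0 for Sh + Flx against Sh.

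The serotonin system, on which fluoxetine acts, gave no call. Of 22 receptor, transporter and p11 genes tested, none passed by edgeR or by DESeq2, and 0 had an unadjusted p under 0.05 (median 0.10). Htr2a, the excitatory 5-HT2A receptor, was at 23.7, 20.5, 18.01 and 18.96 CPM in Gh and 23.8, 24.1, 22.3 and 22.2 in Sh + Flx, which overlap (log2 fold change 0.19, 95% interval -0.01 to 0.38). Htr1a, the inhibitory 5-HT1A receptor, was at 18.7, 20.4, 16.5 and 16.99 CPM and 21.5, 15.2, 15.99 and 16.1 (log2 fold change -0.08, 95% interval -0.32 to 0.16). S100a10, which encodes p11 and marks the tagged cells, was at 7.95, 10.3, 8.29 and 6.49 CPM and 5.51, 7.32, 7.74 and 8.14, again overlapping (log2 fold change -0.21, 95% interval -0.55 to 0.13). Htr4 was at 2.92 ± 1.19 CPM (SD, n = 4) in Gh and 2.91 ± 0.592 in Sh + Flx, with a 95% interval of -0.63 to 0.60.

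Stress and housekeeping programs held few calls, beside shares of 3.1% higher and 2.21% lower over all genes. Of 27 glucocorticoid receptor and target genes, the receptor co-chaperone Fkbp5 (0.48 ± 0.12, adjusted p = 0.0117) and the cell cycle inhibitor Cdkn1a (0.70 ± 0.17, adjusted p = 0.013) rose and the metallothionein Mt2 fell (-0.50 ± 0.10, adjusted p = 0.00323), with a median of -0.05. Without Sh + Flx library 3 neither Fkbp5 (edgeR adjusted p = 0.0573) nor Cdkn1a (0.0869) passed, and Fkbp5 was lost without Gh library 3 (0.0626) and Cdkn1a without Gh library 2 (0.0625). None of the list was called with like libraries summed (edgeR), where 3 were higher and 3 lower at an unadjusted p under 0.05. Mt2 was at 49.8, 38.1, 38.5 and 53.2 CPM in Gh, 36.98, 31.03, 35.5 and 43.6 in Sh and 31.9, 33.5, 30.3 and 31.4 in Sh + Flx. Sh overlapped both other groups. Of 18 clock genes, 4 fell, namely Hlf, Rorb, Bhlhe40 (-0.30) and Nr1d2 (-0.26), and 0 rose by edgeR (median -0.08; 1 gene was higher at an unadjusted p under 0.05 and 0 by DESeq2). Hlf was at 846, 864, 986 and 844 CPM in Gh and 649, 688, 684 and 662 in Sh + Flx, and every Sh + Flx library was lower. The integrated stress response list gave Asns higher (0.27) and the serine synthesis genes Psat1 (-0.33) and Phgdh (-0.49) and Gpt2 (-0.31) lower of 21, and Asns passed in 2 of the 8 omissions of a library (Gh 2, Sh + Flx 3). Heat shock and unfolded protein genes gave Dnajb1 lower (-0.32) of 31. The medians were 0.09 over 33 genes of cholesterol synthesis and uptake and 0.03 over 45 lysosomal genes. Of 17 nuclear noncoding RNAs, Airn, at 0.49 to 0.78 CPM in Gh, rose (1.68), and Peg13 (-0.28), Pvt1 (-0.49) and Malat1 (-0.35) fell. Malat1 was at 46319, 40555, 43684 and 41628 CPM in Gh and 25378, 40305, 41928 and 27604 in Sh + Flx, so that libraries 1 and 4 were far below Gh, while 2 and 3 were near the Gh level. The call of Malat1 was lost without Sh + Flx library 1 (adjusted p = 0.163), Sh + Flx library 4 (0.154), Gh library 1 (0.0875) or Gh library 3 (0.0786) by edgeR.

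**Figure D5:**
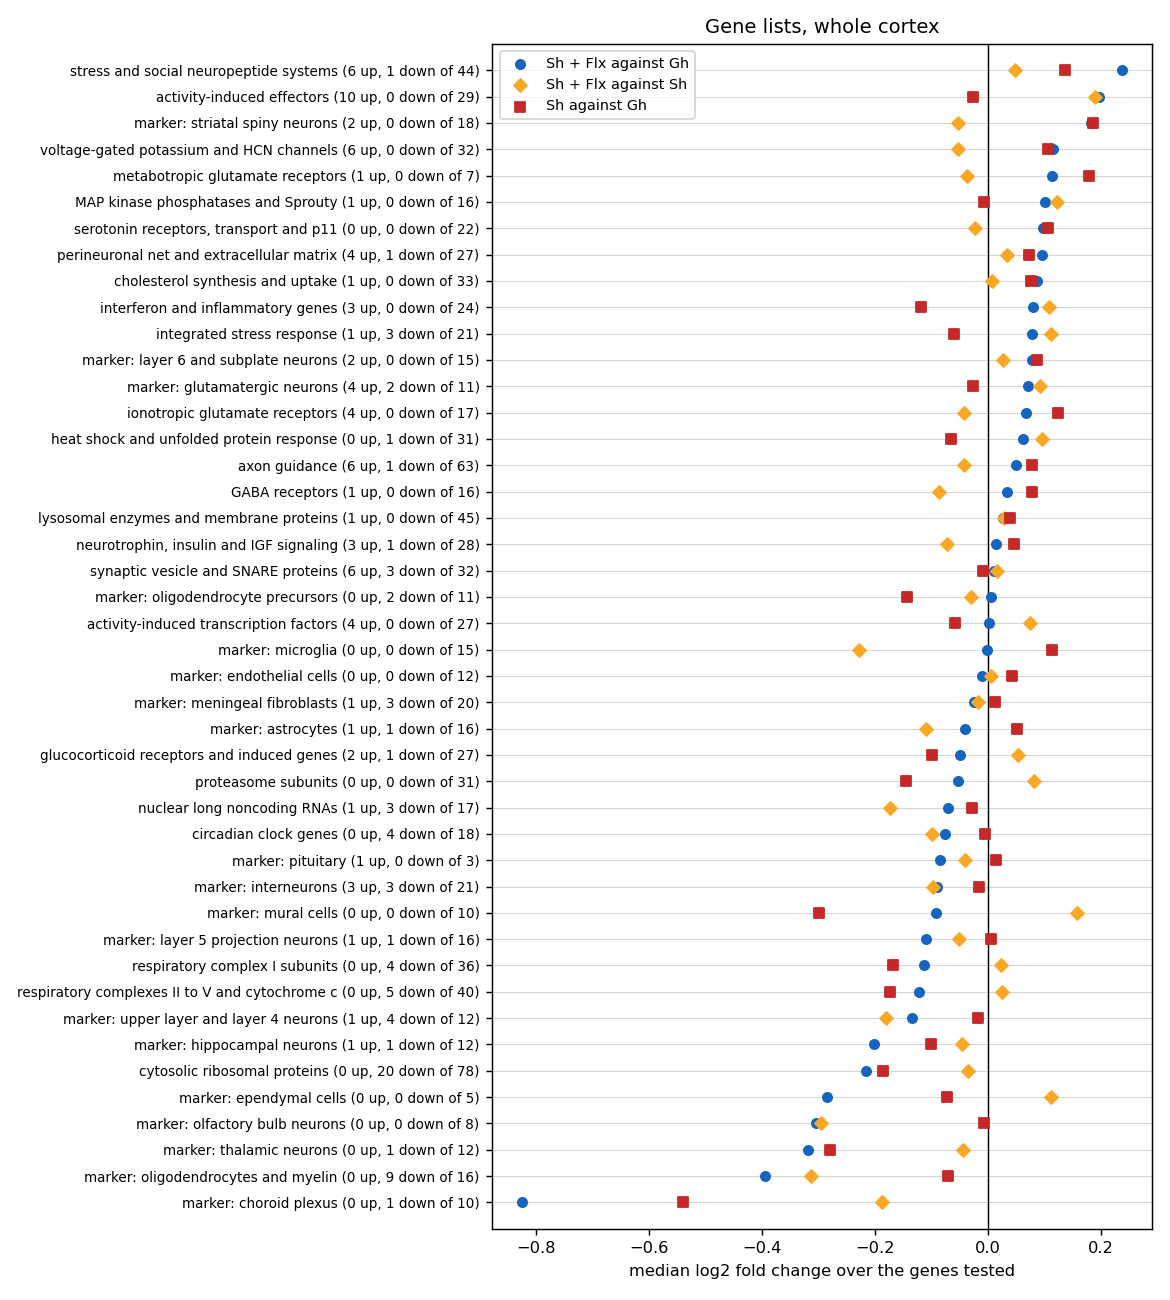
Median log2 fold change (horizontal axis) over the tested genes of each list (vertical axis), for Sh + Flx against Gh (circles), Sh + Flx against Sh (diamonds) and Sh against Gh (squares). Comparisons that share a group share its libraries. The label gives the genes called higher and lower of those tested in Sh + Flx against Gh, and the blood list, with 1 gene tested, is left out. Oligodendrocyte markers lie at -0.40 for Sh + Flx against Gh and at -0.07 for Sh against Gh, ribosomal proteins at -0.21 and -0.19.

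The test of Sh + Flx against Sh, which share housing and differ by drug and by the selection on behavior, passed for 411 genes (2.62%), 286 in the higher (1.82%) and 125 in the lower direction (0.797%). Sh against Gh, which differ by housing, passed for 13 genes (0.0829%), 7 higher (0.0446%) and 6 lower (0.0382%) in Sh. Activity-induced effectors had 8 members higher and 0 lower against Sh, with a median of 0.19, and oligodendrocyte markers 0 higher and 7 lower. Ribosomal protein genes had no call in Sh + Flx against Sh (edgeR), where DESeq2 called 1 lower and 1 was higher and 4 were lower at an unadjusted p under 0.05. They had no call in Sh against Gh either (edgeR), where DESeq2 called 4 lower and 35 were lower at an unadjusted p under 0.05.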

How the data were processed

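RNA of whole mouse cortex (input) was sequenced in 16 libraries, 4 from each of the groups named above. Libraries were made with an unstranded amplification kit and sequenced as paired 75-base reads. The authors aligned reads with TopHat2 (2.0.11 per the submitters' processing notes) to mm10 (GRCm38) with UCSC gene models and deposited whole-number counts per gene for each library. How reads were assigned to genes, and whether strand was used, was not given in the sources used here. Overlapping genes and antisense partners can therefore not be told apart, and 5 summary lines that name no gene were left out (45.1 to 55.2% of reads lay outside features and 0.411 to 0.52% were ambiguous). Between 19265435 and 34515281 counts fell in genes in each library. Counts of the immunoprecipitated RNA, and tables with mean FPKM, fold changes and p-values of the authors' own comparisons, were not used here.

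Counts of 24062 genes were filtered (filterByExpr by group, leaving 15690), scaled by TMM and fitted in 1 edgeR 4.0.16 quasi-likelihood model over the 16 libraries in R 4.3.3 (limma 3.58.1), so that the 4 groups shared 1 estimate of the spread. Groups came from the sample labels. Adjusted p is Benjamini-Hochberg over all genes tested, with a threshold of 0.05. Standard errors and unadjusted 95% intervals of log2 fold changes are from the same fit, with the default prior count of edgeR for the fold changes. A prior count of 2 was used for the log2 CPM behind the correlations between libraries of different groups. The steps were tested on simulated counts drawn independently for each library, so that test did not cover the likeness of libraries within groups. Alternatives were another scaling, DESeq2 1.42.0, no filter, fits of the compared groups only, blocks by replicate number or by like libraries, omission of each library and sums of like libraries.

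Genes named are up to 15 higher and 15 lower called genes with the smallest p and no overlap between libraries (predicted models and small RNA genes skipped), up to 4 members of each list with the smallest p, and S100a10, Htr2a, Htr1a and Htr4. Further genes were named after their values were seen. The comparison, the lists and the markers were chosen with earlier results of these data known. RefSeq gave coordinates and transcript lengths (15635 of 15690 genes matched by symbol or synonym, 15633 with a length, 99.6%) and upstream sequence for 11618 of the genes tested. Some genes that the rule names are not reported here.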

Additional observations from a re-analysis of the deposited data

Results flagged for a closer look

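Among 628 groups of 4 libraries (the genes named above in each of the 4 groups), 26 held 1 library whose gap to the nearest of the others, relative to the range, passed Dixon's 95% critical value for 4 samples. Chance gives about 1 in 20, so the number is about what chance gives. In Sh + Flx, Akap5 stood at 627.9 CPM in library 1 (608.4 to 609.4 in the others), Vamp2 at 1384 in library 1 (1461 to 1462), Htr1a at 21.46 in library 1 (15.24 to 16.07), Inhba at 58.25 in library 2 (67.65 to 68.41) and Sema6a at 53.71 in library 2 (58.65 to 58.71). Also in Sh + Flx, Reln stood at 52.44 CPM in library 4 (46.33 to 46.88).

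In Gh, Sv2c stood at 45.9 CPM in library 1 (38.31 to 38.35 in the others), Rab3a at 144.6 in library 1 (159.6 to 162.6), Kctd1 at 136.3 in library 2 (125.2 to 126.9), Cyp1b1 at 4.612 in library 2 (2.686 to 2.944) and Hlf at 985.6 in library 3 (844.1 to 864.2). In Sh, Gabbr2 stood at 144.5 CPM in library 1 (137.5 to 138.6), and in library 3 Plekha2 stood at 18.18 (16.68 to 16.92), Il33 at 74.41 (80.47 to 81.68) and Asns at 41.88 (47.33 to 48.12). In Sh library 4, Hopx stood at 14.86 CPM (12.17 to 12.54), Ntrk3 at 69.36 (64.33 to 65.04), Kcna1 at 336.8 (357.8 to 359.3) and Sema6a at 69.51 (61.86 to 62.88).

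In Sh + Flx anxious, Rorb stood at 422.0 CPM in library 1 (409.4 to 411.3 in the others) and Plxna4 at 170.3 in library 1 (184.8 to 185.9). In library 2 Cadps2 stood at 94.21 CPM (84.73 to 86.34) and Htr4 at 3.763 (1.59 to 1.956). In library 4 Sox10 stood at 31.83 CPM (29.2 to 29.47), Npy at 39.72 (30.62 to 31.55) and Rab3a at 146.2 (135.9 to 136.7).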

How the results depend on the processing

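Of 833 genes called in Sh + Flx against Gh, DESeq2's size factors called 835 (832 shared), DESeq2 1130 (807 shared), no filter 856, a block for like libraries 858 and a fit of the 8 libraries alone 809. Shared genes kept their direction in each of these. Leaving out 1 library gave 482 to 818 genes, with 482 without Sh + Flx library 1 and 524 without Sh + Flx library 4. Summing like libraries, an alternative chosen after seeing the data, gave 148 (109 higher, 39 lower, 73.6% higher against 58.3%). Sh + Flx against Sh gave 411 genes, 252 to 320 without 1 library (267 without Sh library 2, 252 without Sh + Flx library 1) and 59 with like libraries summed (55 higher, 4 lower, 93.2% higher against 69.6%). The cause of these differences was not tested.

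The small counts moved most. Sh + Flx against Sh + Flx anxious gave 20 genes (60% higher), 92 by DESeq2, 33 without the filter, 34 (47.1% higher) with only the libraries compared, 9 to 24 without 1 library and 1 with like libraries summed. The 9 came without Sh + Flx library 1, and the other Sh + Flx libraries gave 10 to 13 when left out, as did Sh + Flx anxious libraries 1 (12) and 4 (10). Sh against Gh gave 13 genes (53.8% higher), 156 by DESeq2, 42 without the filter, 6 (33.3% higher) with only the libraries compared and 3 to 33 without 1 library. The 33 came without Gh library 1, and each other omission gave 3 to 7. With like libraries summed edgeR called 0 genes in Sh against Gh, 1029 at an unadjusted p under 0.05.

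With the replicate number as a block, 742 genes differed between Sh + Flx and Gh (719 shared with the 833), 368 between Sh + Flx and Sh, 22 between the fluoxetine groups and 4 between Sh and Gh. Libraries of different groups with the same number correlated at -0.0572 to 0.0745 in 24 pairs of deviations, and those with different numbers at -0.0802 to 0.0591 in 72, so the numbers were not taken as pairs. Of 143 named genes that were called, the block ended the call of 6.

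Of these 143, 50 lost the call without at least 1 of the 8 libraries, with an adjusted p of at most 0.225 (edgeR), and summing like libraries ended 94 calls. Those that lost it in 5 or more omissions were Adamts1, Asns, Cartpt, Cox5b, Cox7b, Cox7c, Cyp1b1, Gabbr2, Gpt2, Gria1, Kcnf1, Kcnh1, Ndufc1, Ndufs4, Nr1d2, Phgdh, Rab3a, Sorcs3, Sox10, Sulf1 and Trhr. The sign changed for Htr4 (log2 fold change -0.02 in the fit reported), which was 0.00648 with the replicate block, and without 1 library ranged from -0.205 to 0.273 (0.273 without Gh library 1, 0.076 and 0.0505 without Sh + Flx library 1 or 3). It also changed for Homer1 (-0.01), which ranged from -0.0324 to 0.0264 (0.0264 without Gh library 1, 0.00526 without Sh + Flx library 2). Neither gene was called in any of these fits. Depth limits the least abundant genes, such as Htr4 at a mean of 2.92 CPM in Gh.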

Other observations

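Several genes of low level had large called differences, and they are named after their values were seen. Rgs13, a regulator of G protein signaling, stood at 0.765, 0.455, 0.75 and 0.482 CPM in Gh and 2.97, 3.11, 3.18 and 2.98 in Sh + Flx (log2 fold change 2.31 ± 0.31, edgeR adjusted p = 1.56e-05). Pappa, a protease of IGF-binding proteins, stood at 2.06, 1.79, 1.82 and 1.15 and 3.84, 3.23, 4.64 and 4.95 CPM (log2 fold change 1.28). Dpm3, a subunit of dolichol-phosphate mannose synthase, stood at 1.32, 1.21, 1.11 and 1.37 and 3.23, 3.69, 2.97 and 3.36 CPM (1.40). Gpnmb, a glycoprotein of phagocytic cells, stood at 1.53, 0.394, 1.66 and 2.89 and 5.26, 5.27, 2.54 and 7.13 CPM, which overlap (1.66).

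Pmch, the precursor of melanin-concentrating hormone of hypothalamic neurons, stood at 0.09, 1.09, 0.55 and 0.04 CPM in Gh and at 0.04, 0.03, 0.00 and 0.00 in Sh + Flx. The level in Gh thus came from libraries 2 and 3, and the fitted difference depends on the prior count (adjusted p = 0.0134 by edgeR).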
